A study of Mus musculus with 10 samples.

Results

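The genes described here code for the molecular chaperones that fold, hold and refold proteins: the heat shock families HSP90, HSP70, HSP60 with its HSP10 lid, the small heat shock proteins, the DnaJ (J) proteins and the CCT chaperonin. They were taken by gene name, as every row of the deposited table whose symbol starts with Hsp90, with Hsp and one of the letters a, b, d, e or h before a digit, with Dnaja, Dnajb or Dnajc before a digit, or with Cct and a digit from 2 to 8. This gave 75 of 17658 genes: 3 of HSP90, 13 of HSP70, 2 of HSP60 and HSP10, 8 small heat shock proteins, 41 J proteins and 8 CCT subunits. RNA was sequenced from B cells of spleen and lymph node of C57BL/6 mice aged 10 weeks, enriched by magnetic removal of other cells. The mice were Nr4a1+/+ (wild type) or Nr4a1-/- (knockout of Nr4a1, an orphan nuclear receptor gene that antigen receptor signals switch on). Each genotype gave 1 library of unstimulated cells and 4, lettered A to D, of cells kept for 2 h with anti-IgM at 10 µg/mL, an antibody that crosslinks the antigen receptor. Neither the relation of letters to mice nor the making of the knockout allele is given in the labels, so p-values measure the spread between these libraries, which may be technical.

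Chaperones work as a relay. HSP70 proteins grip unfolded stretches and let go in a cycle driven by ATP, J proteins bring substrates to HSP70 and switch on its ATPase, and exchange factors such as the HSP110 proteins release the spent nucleotide. HSP90 receives near-native clients from HSP70, while chaperonins enclose a folding chain in a barrel: CCT (also called TRiC) in the cytosol, which folds actin and tubulin, and HSP60 with HSP10 in mitochondria. The endoplasmic reticulum (ER) has its own HSP70 (BiP, the product of Hspa5) and HSP90 (Grp94, of Hsp90b1); BiP takes its name from binding antibody heavy chains in B lineage cells.

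Values are FPKM, a measure of fragments scaled to library and transcript length. They divide by transcript length and so allow levels of different genes to be compared. As a check of the labels, Nr4a1 itself measured 808 ± 47.2 FPKM (SD, n = 4) in the stimulated wild-type libraries and 702.1 ± 44.6 FPKM (SD, n = 4) in those labelled knockout. It was called lower in the latter (log2 change -0.203, SE 0.0531, adjusted p = 0.0432), and not with median-of-ratios scaling (adjusted p = 0.133). The 2 groups overlapped and the transcript was abundant in both, so the libraries are called by their labels throughout. The immediate early genes Egr1 and Myc rose after anti-IgM by log2 changes of 2.08 and 3.33. The B cell markers Cd79a, Cd79b and Ms4a1 were abundant and fell, with log2 changes of -1.098 (Ms4a1) to -2.13 (Cd79b). The T cell markers Cd3e, Cd3g, Cd4 and Cd8a stayed under 1 FPKM in every library, as did the NK cell genes Klrb1c and Gzma. Lck, on the T cell list, stood at 17.5 and 25 FPKM unstimulated and 43.7 to 66.8 FPKM stimulated, higher in the libraries labelled knockout (log2 change 0.48, SE 0.0328, adjusted p = 3.15e-05). The 6 plasma cell markers summed to 201 and 205 FPKM without anti-IgM and to 1046 to 1191 FPKM after it, most of it Irf4. Irf4, Prdm1 and Xbp1 rose (log2 changes of 3.11, 1.04 and 0.33), Sdc1 fell (log2 change -1.16, SE 0.0726, adjusted p = 5.53e-08), Jchain was not called (log2 change -0.35, SE 0.153, adjusted p = 0.0553), and Tnfrsf17 was below the filter. The 5 myeloid markers summed to between 19.4 and 120.1 FPKM over the stimulated libraries, mostly Lyz2, with overlapping ranges in the genotypes. The erythroid markers summed to 25.3 and 6.06 FPKM unstimulated and 2.72 to 10.1 FPKM stimulated, and the cycling cell markers to 19.5 and 17.9 FPKM and to 13.9 to 26.6 FPKM. In such bulk RNA, fewer cells of a type and less RNA per cell cannot be told apart.

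Mean levels of the members over the 10 libraries ran from 0.006 FPKM (Dnajc6) upward. Hspa8, the constitutive cytosolic HSP70 (Hsc70), was the most abundant with 1359.8 FPKM, followed by Hsp90ab1 (1194), Hspa5 (464), Hsp90aa1 (439) and Cct5 (329). The 2 leading genes held 34.0% of the summed FPKM of all 75. In all, 20 members had a mean of at least 100 FPKM, 23 a mean of 10 to 100, and 18 a mean of 1 to 10. The other 14 had a mean under 1 FPKM and were not tested: Hspa1l, Hspa12a, Hspb2, Hspb3, Hspb7, Hspb8, Hspb9, Dnaja4, Dnajb3, Dnajb13, Dnajc6, Dnajc22, Dnajc28 and Cct6b, many of them known from testis, muscle or nerve. Of these, Dnajc28 alone exceeded 1 FPKM in any library, with 2.29 and 2.42 FPKM unstimulated and 0.240 to 0.660 FPKM after anti-IgM.

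Summed chaperone transcript was higher in all 8 stimulated libraries. The summed FPKM of the 75 genes was 4691 FPKM in wild type unstimulated, 4714 FPKM in the unstimulated library labelled knockout and 7878 to 8624 FPKM in the 8 stimulated libraries. As a share of each library's summed FPKM, this was 0.695% and 0.792% without anti-IgM and 1.40% to 1.51% after it. The mean of the stimulated libraries over that of the unstimulated ones was 1.75 for all members, 2.099 for HSP70, 2.000 for HSP90, 1.81 for HSP60 and HSP10, 1.77 for CCT and 1.56 for the DNAJA proteins. It was 1.37 for the DNAJB proteins, 0.919 for the DNAJC proteins and 0.489 for the small heat shock proteins. Single genes weighed heavily in these last sums, which therefore do not describe their classes as a whole. Mean FPKM unstimulated and stimulated was 38.3 and 126.9 for Dnajb9, 181.1 and 95.2 for Dnajc7, and 16.0 and 7.80 for Hspb11. The library sums of all genes also differed, at 674961 and 595500 FPKM without anti-IgM and 557214 to 571784 FPKM after it, which is why a second scaling (median-of-ratios) is given beside the main counts.

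**Figure D1:**
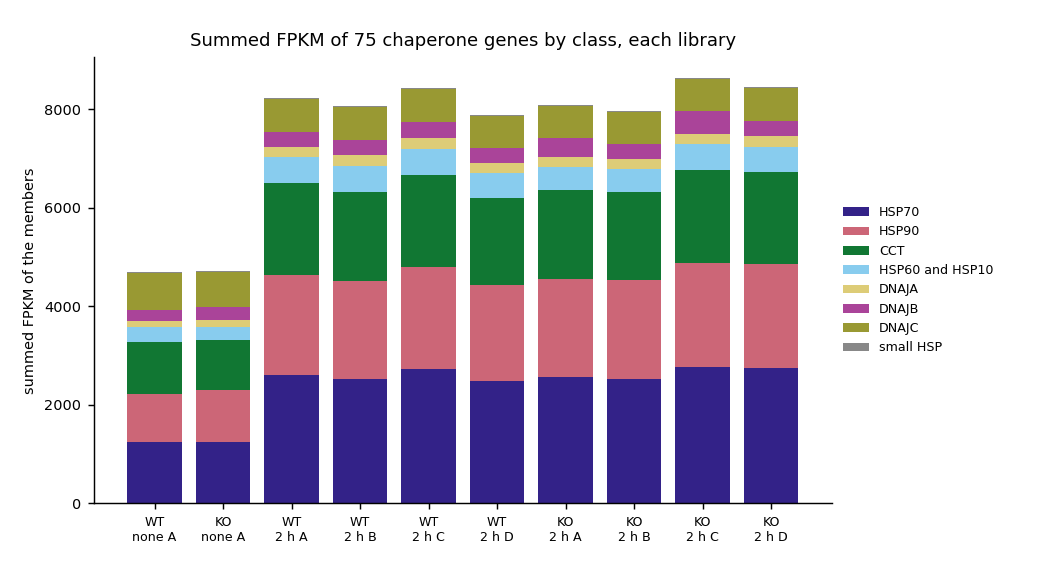
Summed FPKM of the 75 chaperone genes in each of the 10 libraries, stacked by class (WT wild type, KO labelled knockout; none, unstimulated; 2 h, after anti-IgM). The 2 unstimulated bars reach 4691 and 4714 FPKM and the 8 stimulated bars 7878 to 8624 FPKM, with larger HSP70, HSP90 and CCT segments and a DNAJC segment that stays between 654 and 739 FPKM.

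The response to anti-IgM was tested gene by gene on log2(FPKM + 1), 8 stimulated against 2 unstimulated libraries with genotype as a term (limma, two-sided, Benjamini-Hochberg adjustment over the 10225 genes averaging 1 FPKM or more; called means an adjusted p under 0.05). Of the 61 tested members, 32 rose, 16 fell and 13 were not called, where 31.2% of all tested genes rose and 47.7% fell. With a fold change of 2 or more, 9 members rose and 2 fell (Dnajc9 and Hspb6), against 7.94% and 12.4% of all genes. With median-of-ratios scaling 37 members rose and 12 fell, and so did 39.1% and 38.8% of all genes. The falls include Hspb6, which passed the filter only through its unstimulated level. The 8 stimulated libraries all lay above the 2 unstimulated ones for 28 members and all below for 14, beside 28.6% and 44.3% of all genes. The median log2 change was 0.21 over the tested members and -0.17 over all tested genes on the deposited scale, and 0.37 and -0.017 with median-of-ratios scaling. Abundant genes as a whole moved upward: of the 777 genes averaging 100 FPKM or more, 451 rose and 239 fell, with a median of 0.31, while of the 20 members at that level 17 rose and 1 fell, with a median of 0.89. The 18 tested members with a mean under 10 FPKM gave 3 rises and 9 falls (median -0.25), beside 602 rises and 2501 falls (median -0.42) among 4194 genes at that level.

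**Figure D2:**
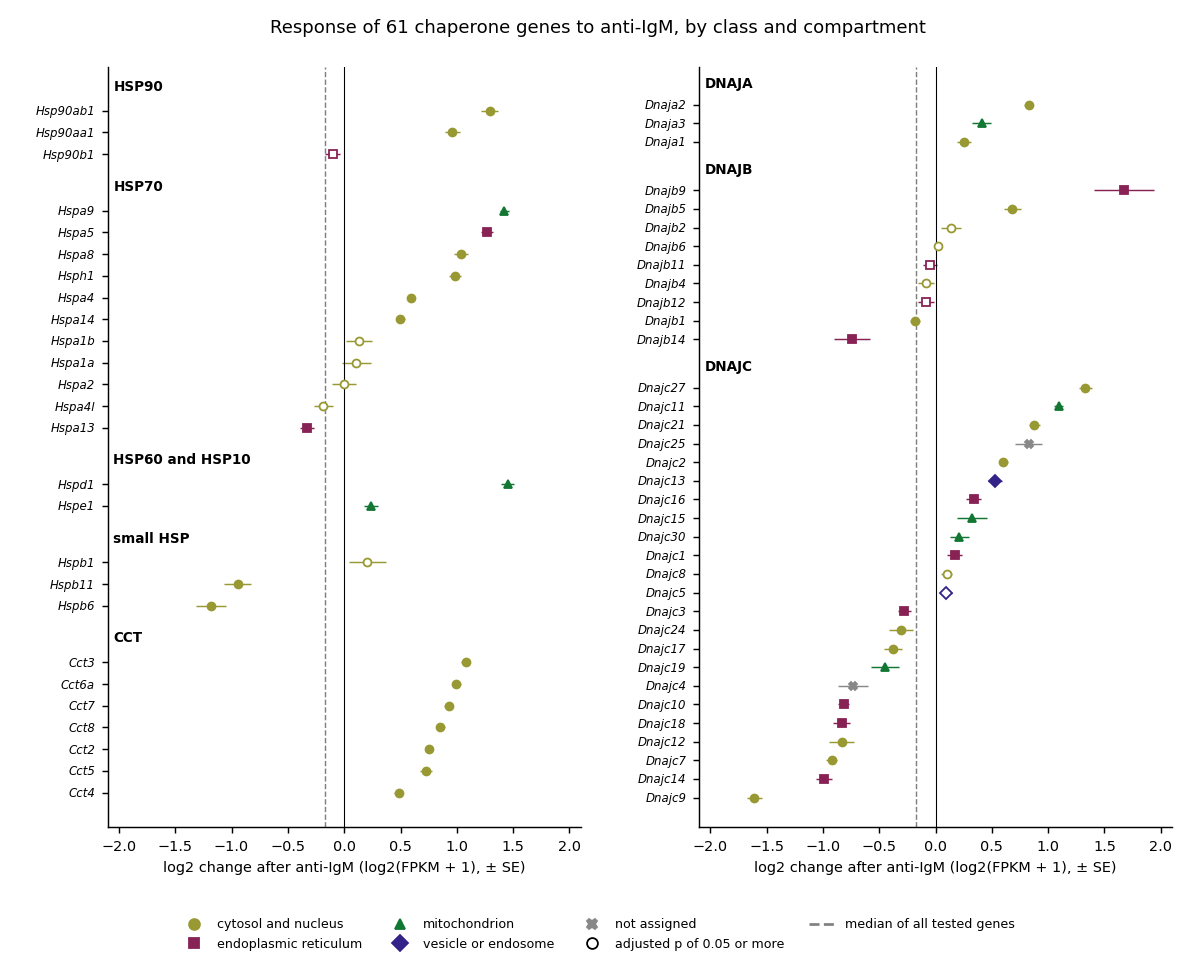
Log2 change after anti-IgM (8 against 2 libraries, points with SE) for each of the 61 tested chaperone genes, by class, with symbols for compartment and open symbols for genes that were not called; the dashed line marks the median of all tested genes, -0.17. The 7 CCT subunits all lie to the right of 0, whereas the J proteins spread from -1.61 (Dnajc9) to 1.67 (Dnajb9).

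The cytosolic HSP90 genes rose. Hsp90ab1, the constitutive form, stood at 474 FPKM in wild-type cells without anti-IgM and 642 FPKM in the unstimulated library labelled knockout, against 1367, 1310.0, 1369.8 and 1304 FPKM in wild-type libraries A to D after anti-IgM and 1338, 1340.4, 1418 and 1381 FPKM in their counterparts labelled knockout. All stimulated values lay above both unstimulated ones, and the log2 change was 1.29 (SE 0.0753, adjusted p = 3.04e-08), a 2.42-fold rise in mean FPKM. Hsp90aa1, the more stress-responsive form, stood at 273 and 228 FPKM without anti-IgM (wild type first), 468, 487, 508 and 466 FPKM in wild type after anti-IgM and 470.0, 474, 507 and 514 FPKM in the libraries labelled knockout. This was a rise of 0.96 (SE 0.0655, adjusted p = 1.14e-07) on the log2 scale, with no overlap between stimulated and unstimulated libraries. The ratio of Hsp90ab1 to Hsp90aa1 was 1.74 and 2.82 in the unstimulated wild-type and knockout-labelled libraries, and between 2.68 and 2.92 in the 8 stimulated ones, so the unstimulated library labelled knockout already lay within the stimulated range (two-sided exact permutation p = 0.133 over 45 labellings, 8 against 2).

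Among cytosolic HSP70 genes, the constitutive form and 2 of 3 HSP110-type exchange factors rose and the heat-inducible pair was not called. Hspa8 was measured at 740.4 FPKM in wild-type cells without anti-IgM and 734 FPKM in the unstimulated library labelled knockout, against 1512, 1474, 1637 and 1447 FPKM in wild-type libraries A to D after anti-IgM and 1439, 1415, 1614 and 1585 FPKM in their counterparts labelled knockout. All 8 stimulated libraries lay above both unstimulated ones, 2.06-fold in mean FPKM, with a log2 change of 1.04 (SE 0.0639, adjusted p = 4.93e-08). Hsph1, an HSP110-type exchange factor for Hsc70, was measured at 25.1 and 28.1 FPKM without anti-IgM (wild type first), 52.9, 53.9, 54.1 and 50.2 FPKM in wild type after anti-IgM and 52.7, 50.8, 56.1 and 56.6 FPKM in the libraries labelled knockout. On the log2 scale it rose by 0.98 (SE 0.0521, adjusted p = 1.41e-08). Hspa4, of the same type, rose by 0.596 (SE 0.0366, adjusted p = 4.75e-08), from 77.6 and 83.1 to 118 to 124 FPKM, and Hspa14, of the ribosome-associated complex, rose by 0.499 (SE 0.0398, adjusted p = 4.36e-07). The third of that type, Hspa4l, stood at 5.25 and 6.21 FPKM without anti-IgM and 4.22 to 5.67 FPKM after it and was not called (adjusted p = 0.0556). Its fall was called without wild-type library B (adjusted p = 0.0442) or labelled knockout library B (adjusted p = 0.0413), and after quantile normalization its change was 0.21 (adjusted p = 0.0138).

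Hspa1a and Hspa1b, the HSP70 genes that heat switches on, were low in every library. Hspa1a stood at 4.34 and 7.37 FPKM without anti-IgM (wild type first), 6.35, 6.16, 5.74 and 6.05 FPKM in wild type after anti-IgM and 6.01, 5.50, 7.78 and 6.31 FPKM in the libraries labelled knockout, and its change of 0.11 (SE 0.1305, adjusted p = 0.458) was not called. Hspa1b stood at 4.96 and 6.86 FPKM without anti-IgM (wild type first), 6.16, 5.53, 5.73 and 7.33 FPKM in wild type after anti-IgM and 7.13, 5.69, 7.90 and 6.91 FPKM in the libraries labelled knockout, with a change of 0.13 (SE 0.116, adjusted p = 0.312). Without the unstimulated library labelled knockout Hspa1a was called as a rise (adjusted p = 0.0216), and without the wild-type one its change was -0.19. After quantile normalization both were called as rises (adjusted p = 0.00539 and 0.00212), and Hspa1b also with median-of-ratios scaling (adjusted p = 0.0436). For both, the stimulated values straddled that of the unstimulated library labelled knockout. Their coding sequences are nearly identical, so the split of reads between the pair is uncertain. The heat-inducible J protein Dnajb1, a partner of these HSP70s, fell slightly, from 26.5 and 28.2 FPKM to 22.9 to 25.1 FPKM (log2 change -0.18, SE 0.0456, adjusted p = 0.00306). That call was lost when libraries were rescaled (adjusted p = 0.7196 as TPM and 0.803 with median-of-ratios scaling). On the deposited scale Hspa1a, Hspa1b and Dnajb1 were thus not among the cytosolic genes that rose at 2 h.

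Heat shock factors bind repeats of the 5 letters NGAAN in alternating orientation, and the windows around the start sites (250 bases before to 50 after, RefSeq, GRCm38.p6) were searched for them on both strands. A window was on hand for 61 of the 75 members. Those without one, and so not searched, include Hspa8, Hsp90aa1, Hsp90ab1, Hspa9, Cct4 and Dnajc11, all of which rose. The inward pair GAANNTTC was found in 14 of 61 members (23.0%) and in 9.04% of all 27025 genes with a window. The outward pair TTCNNGAA was found in 8 (13.1%) and in 9.60%. The 3-unit string GAANNTTCNNGAA, which contains both pairs, was found in 4 (6.56%), namely Hspd1, Hspe1, Hsph1 and Dnajb6, and in 0.662% of all genes. The matching windows of Hspd1 and Hspe1 overlap by 285 bases. These 2 genes therefore enter each count through the same stretch of sequence and are not independent. Of these 4, Hspd1, Hspe1 and Hsph1 rose, and Dnajb6, a suppressor of protein aggregation, stood at 84.1 and 86.7 FPKM without and 83.7 to 88.95 FPKM with anti-IgM. Dnajb6 was not called on the deposited scale (log2 change 0.025, SE 0.0323, adjusted p = 0.489), was called as a rise with median-of-ratios scaling (adjusted p = 5.57e-04) and as a fall after quantile normalization (adjusted p = 0.001896). Hspa1a and Hspa1b hold GAANNTTC at position -104 from the start and were not called. The E-box CACGTG, the letters bound by Myc with Max, was in 6 members (9.84%) and in 8.09% of all genes. Among tested genes with a window it was in 6 of 49 members and in 12.8% of genes, so members held no excess. On that footing GAANNTTC was in 11 of 49 members and 6.96% of genes, and TTCNNGAA in 8 and 8.36%. The 3-unit string was in 4 of 49 and 0.59%. A match is a description of the letters and not a measured binding site. Hsph1 and Hspd1 have 2 windows each, of which 1 is shown. The Hsph1 window, chr5:149636266-149636565 on the minus strand, is that of a cytosolic gene that rose and carries the 3-unit string. The Hspd1 window, chr1:55087883-55088182 on the minus strand, is shown because it serves 2 genes. The E-box counted for Hspd1 lies in its other window, chr1:55088194-55088493, where the 3-unit string was not found. Capitals mark the 3-unit heat shock string or its reverse complement, and in Hspd1 overlapping matches on the 2 strands form 1 run.
Hsph1: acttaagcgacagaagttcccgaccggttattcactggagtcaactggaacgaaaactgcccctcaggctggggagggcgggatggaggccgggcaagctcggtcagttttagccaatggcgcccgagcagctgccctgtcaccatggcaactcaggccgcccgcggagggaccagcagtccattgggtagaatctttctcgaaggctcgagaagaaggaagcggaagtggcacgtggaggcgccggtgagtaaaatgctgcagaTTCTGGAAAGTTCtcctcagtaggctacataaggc
Hspd1: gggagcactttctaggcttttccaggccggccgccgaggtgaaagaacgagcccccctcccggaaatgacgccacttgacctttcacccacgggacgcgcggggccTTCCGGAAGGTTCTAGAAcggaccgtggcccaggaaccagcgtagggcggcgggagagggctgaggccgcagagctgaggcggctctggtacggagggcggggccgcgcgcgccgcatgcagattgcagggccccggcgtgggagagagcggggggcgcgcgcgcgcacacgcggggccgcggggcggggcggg

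Of 8 mitochondrial members 7 rose and 1 fell, beside 31.2% and 47.7% of all tested genes. With median-of-ratios scaling 7 rose and 0 fell (limma adjusted p = 0.086 for Dnajc19), beside 39.1% and 38.8% of all tested genes. Both chaperonin genes rose, Hspd1 with the larger fitted change. Hspd1, the HSP60 subunit, stood at 109.8 FPKM in wild-type cells without anti-IgM and 119.6 FPKM in the unstimulated library labelled knockout, against 332, 316, 331 and 308 FPKM in wild-type libraries A to D after anti-IgM and 296, 294, 323 and 323 FPKM in their counterparts labelled knockout, a change of 1.45 (SE 0.0561, adjusted p = 1.25e-09). Hspe1, the HSP10 lid that caps it, stood at 193 and 147 FPKM without anti-IgM (wild type first), 207, 215, 207 and 205 FPKM in wild type after anti-IgM and 177, 181, 204 and 199 FPKM in the libraries labelled knockout. The unstimulated wild-type value of Hspe1 lay within the range of the stimulated libraries. Its log2 change was 0.24 (SE 0.0653, adjusted p = 0.00604), with adjusted p = 0.183 without the unstimulated library labelled knockout and 0.845 after quantile normalization. The genes lie head to head. The Hspd1 window printed above and the 300-base window of Hspe1 share 285 bases, identical on opposite strands. The sequence printed for Hspd1 is thus nearly all of that of Hspe1 read from the other side. The ratio of Hspd1 to Hspe1 was 0.5696 and 0.811 in the unstimulated wild-type and knockout-labelled libraries, and between 1.47 and 1.68 in the 8 stimulated ones. All 8 stimulated libraries lay above both unstimulated ones (two-sided exact permutation p = 0.0222, the smallest that 45 labellings allow, and 0.0571 after adjustment over 6 tests of ratios, which were chosen after their values were seen).

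Hspa9, the mitochondrial HSP70 mortalin, which pulls imported proteins into the matrix, stood at 112 and 125 FPKM without anti-IgM (wild type first), 317, 306, 317 and 302 FPKM in wild type after anti-IgM and 322, 315, 333 and 334 FPKM in the libraries labelled knockout. Its log2 change of 1.42 (SE 0.0404, adjusted p = 1.56e-10) was among the largest of any member. Of the 5 mitochondrial J proteins, 4 rose and 1 fell, beside 31.2% and 47.7% of all tested genes. With median-of-ratios scaling 4 rose and 0 fell, beside 39.1% and 38.8%. Dnajc11, a factor of cristae organisation, rose from 19.9 and 22.2 to 44.8 to 47.6 FPKM (log2 change 1.09, SE 0.0416, adjusted p = 1.11e-09), and Dnaja3, a partner of mortalin, from 18.2 and 24.2 to 26.9 to 29.8 FPKM (log2 change 0.41, SE 0.08105, adjusted p = 6.94e-04). Dnajc30 (log2 change 0.21, SE 0.0858, adjusted p = 0.04196) and Dnajc15 (log2 change 0.32, SE 0.135, adjusted p = 0.0465), a J protein of the inner membrane, also rose. Dnajc15 was not called without the unstimulated library labelled knockout (adjusted p = 0.659) or without any 1 of 6 stimulated libraries (wild type A, B or C, labelled knockout B, C or D; 0.0533 to 0.0709). Without the unstimulated wild-type library the log2 change of Dnajc30 was -0.0054 (adjusted p = 0.953), and without 1 stimulated library (wild type A, B, C or D, or labelled knockout C) its adjusted p was 0.0566 to 0.0659. Dnajc19, of the import motor, stood at 38.2 and 26.1 FPKM without anti-IgM (wild type first), 21.8, 25.97, 20.5 and 21.5 FPKM in wild type after anti-IgM and 22.6, 21.6, 23.9 and 26.2 FPKM in the libraries labelled knockout. It fell, with a log2 change of -0.45 (SE 0.125, adjusted p = 0.00661), which was not called without the unstimulated wild-type library (adjusted p = 0.308). In that gene the unstimulated library labelled knockout overlapped the stimulated range.

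The CCT subunits moved together. All 7 tested subunits rose, by log2 changes of 0.48 (Cct4), 0.73 (Cct5), 0.75 (Cct2), 0.85 (Cct8), 0.93 (Cct7), 0.995 (Cct6a) and 1.08 (Cct3), with limma adjusted p from 8.69e-10 to 7.68e-07, and all 7 were called in each of 19 alternatives. Cct3 stood at 160.1 FPKM in wild-type cells without anti-IgM and 157 FPKM in the unstimulated library labelled knockout, against 339, 329, 340.2 and 333 FPKM in wild-type libraries A to D after anti-IgM and 335, 322, 347 and 349 FPKM in their counterparts labelled knockout. Cct4, with the smallest rise, stood at 161 and 145 FPKM without anti-IgM (wild type first), 219.8, 213, 217 and 208 FPKM in wild type after anti-IgM and 217, 210.1, 216 and 209.7 FPKM in the libraries labelled knockout. In each of the 7 genes every stimulated library was above both unstimulated ones. CCT holds 1 copy of each of 8 different subunits per ring, and the eighth, Tcp1, which the naming rule leaves out, rose by 0.64 (SE 0.04305, adjusted p = 1.02e-07). Transcript levels were not equal: in all 10 libraries Cct7 was the lowest and Cct5 the highest of the 7, at ratios of 2.79 and 2.35 unstimulated and 2.18 to 2.31 after anti-IgM. The SD of the 7 subunits on the log2 scale was 0.501 and 0.449 unstimulated and 0.415 to 0.439 after anti-IgM. Cct6b, a second form of the zeta subunit known from testis, was at most 0.11 FPKM. Of 8 genes of CCT and the partners that feed it outside the naming rule, Tcp1 among them, 3 rose and 5 fell. The shares of all tested genes were 31.2% and 47.7%. Pfdn2 of prefoldin, which hands over actin and tubulin chains, rose by 1.02, while Pfdn5 fell by 0.91, Pfdn1 by 0.73 and Pdcl, a phosducin-like cofactor, by 0.83 (limma adjusted p = 1.55e-07, 3.00e-07, 3.90e-06 and 7.71e-08).

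Of 13 tested ER members, 4 rose and 6 fell, with a median of -0.10; these shares lay near those of all tested genes, 31.2% and 47.7%. Hspa5 (BiP) stood at 223 FPKM in wild-type cells without anti-IgM and 211 FPKM in the unstimulated library labelled knockout, against 512, 491, 514 and 478 FPKM in wild-type libraries A to D after anti-IgM and 545, 539.7, 551 and 572 FPKM in their counterparts labelled knockout. Its rise of 1.27 (SE 0.05404, adjusted p = 2.56e-09), 2.42-fold, left no overlap. Hsp90b1 (Grp94), by contrast, stood at 229 and 185 FPKM without anti-IgM (wild type first), 203, 185, 191 and 184 FPKM in wild type after anti-IgM and 189, 192, 187 and 204 FPKM in the libraries labelled knockout, and its change of -0.102 (SE 0.0675, adjusted p = 0.186) was not called. The unstimulated library labelled knockout lay within the stimulated range of Hsp90b1. Without it the fall was called (log2 change -0.26, adjusted p = 0.00337), and without the unstimulated wild-type library the change was 0.057 (adjusted p = 0.4197). The fall was called after quantile normalization (adjusted p = 8.84e-04), while with median-of-ratios scaling the change was 0.075. The ratio of Hspa5 to Hsp90b1 was 0.977 and 1.14 in the unstimulated wild-type and knockout-labelled libraries, and between 2.52 and 2.94 in the 8 stimulated ones (two-sided exact permutation p = 0.0222, adjusted 0.0571).

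Hspa5 and Hsp90b1 are textbook joint targets of the unfolded protein response, and their start-site windows were therefore compared. The ER stress element, CCAAT and CCACG separated by 9 letters (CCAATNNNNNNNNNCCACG), was found in 3 of 61 members (4.92%), Hspa5, Hsp90b1 and Dnajc3, and in 0.137% of all genes. The shorter form ERSE-II, ATTGGNCCACG, was found in Dnajb11 alone among members (1.64%) and in 0.0444% of all genes. Of these 4 genes Hspa5 rose, Hsp90b1 and Dnajb11 were not called, and Dnajc3 fell. The windows of Hspa5 (chr2:34771840-34772139, plus strand), Hsp90b1 (chr10:86705395-86705694, minus strand), Dnajc3 (chr14:118937682-118937981, plus strand) and Dnajb11 (chr16:22857595-22857894, plus strand) are shown so that the shared element can be set beside these calls. Capitals mark each match on either strand, and the first base of the match lies at -65 from the start in Hspa5, at -212 and -107 in Hsp90b1, at -105 in Dnajc3 and at 8 in Dnajb11.
Hspa5: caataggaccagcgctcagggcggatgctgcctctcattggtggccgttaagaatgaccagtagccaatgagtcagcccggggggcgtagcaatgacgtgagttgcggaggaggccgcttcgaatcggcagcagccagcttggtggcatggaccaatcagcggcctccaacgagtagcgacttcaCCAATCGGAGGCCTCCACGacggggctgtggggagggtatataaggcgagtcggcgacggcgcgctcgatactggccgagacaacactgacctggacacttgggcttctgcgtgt
Hsp90b1: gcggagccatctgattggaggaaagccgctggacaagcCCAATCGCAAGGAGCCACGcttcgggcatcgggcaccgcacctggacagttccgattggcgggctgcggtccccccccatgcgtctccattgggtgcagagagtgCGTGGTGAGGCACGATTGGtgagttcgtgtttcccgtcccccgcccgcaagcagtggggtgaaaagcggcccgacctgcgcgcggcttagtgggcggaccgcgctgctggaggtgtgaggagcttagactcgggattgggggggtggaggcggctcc
Dnajc3: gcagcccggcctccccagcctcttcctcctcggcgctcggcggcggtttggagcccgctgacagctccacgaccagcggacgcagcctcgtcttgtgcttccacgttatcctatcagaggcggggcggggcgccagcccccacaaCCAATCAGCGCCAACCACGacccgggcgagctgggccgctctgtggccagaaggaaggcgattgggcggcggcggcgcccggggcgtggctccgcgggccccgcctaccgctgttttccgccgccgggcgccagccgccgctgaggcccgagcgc
Dnajb11: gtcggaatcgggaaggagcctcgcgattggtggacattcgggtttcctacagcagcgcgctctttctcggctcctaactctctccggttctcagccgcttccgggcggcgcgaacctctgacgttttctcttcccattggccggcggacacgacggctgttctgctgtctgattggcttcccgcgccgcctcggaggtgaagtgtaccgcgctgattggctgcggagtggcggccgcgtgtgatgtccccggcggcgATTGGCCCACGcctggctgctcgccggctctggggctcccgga

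Among the J proteins of the ER, 3 of 10 rose and 5 fell, again near the shares of all tested genes (31.2% and 47.7%). Dnajb9 (ERdj4), which recruits BiP to the stress sensor Ire1 and to misfolded chains, had the largest rise of any member, 1.67 (SE 0.268, adjusted p = 1.41e-04), from 27.4 and 49.3 FPKM to 91.9 to 243 FPKM. Dnajc16 rose by 0.34 (SE 0.0706, adjusted p = 0.00103), and Dnajc1 (ERdj1), which binds ribosomes, by 0.17 (SE 0.06701, adjusted p = 0.0368). The call of Dnajc1 was lost in 10 of 19 alternatives, among them leaving out the unstimulated wild-type library (adjusted p = 0.06298), that labelled knockout (adjusted p = 0.194) or 1 stimulated library (wild type A or D, labelled knockout A, B or D; adjusted p 0.0511 to 0.0587). Dnajb11 (ERdj3), a soluble partner of BiP, stood at 38.7 and 43.4 FPKM without anti-IgM (wild type first), 41.7, 41.6, 39.8 and 41.6 FPKM in wild type after anti-IgM and 35.5, 41.03, 37.1 and 38.8 FPKM in the libraries labelled knockout, with a change of -0.049 (SE 0.0653, adjusted p = 0.504). Without the unstimulated wild-type library its fall was called (adjusted p = 0.0305), and without the one labelled knockout the change was 0.087.

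Dnajc10 (ERdj5), a disulfide reductase that opens bonds of proteins bound for degradation, stood at 23.9 and 21.3 FPKM without anti-IgM (wild type first), 12.9, 13.1, 13.8 and 12.8 FPKM in wild type after anti-IgM and 11.9, 11.7, 11.03 and 11.9 FPKM in the libraries labelled knockout, a fall with no overlap (log2 change -0.82, SE 0.0487, adjusted p = 3.79e-08). Dnajc3 (P58IPK) stood at 15.8 and 14.4 FPKM without anti-IgM (wild type first), 13.5, 14.3, 12.96 and 12.5 FPKM in wild type after anti-IgM and 11.4, 11.7, 11.2 and 11.2 FPKM in the libraries labelled knockout. It fell, with a log2 change of -0.28 (SE 0.0552, adjusted p = 7.15e-04), which was not called as TPM (adjusted p = 0.138) or with median-of-ratios (adjusted p = 0.0589) or quantile scaling (adjusted p = 0.0856). The membrane J proteins Dnajc14 (log2 change -0.99, SE 0.06798, adjusted p = 1.20e-07), Dnajc18 (log2 change -0.83, SE 0.0772, adjusted p = 1.55e-06) and Dnajb14 (log2 change -0.74, SE 0.157, adjusted p = 0.00113) fell as well; Dnajb14 was not called after quantile normalization (adjusted p = 0.0645). Another of this kind, Dnajb12, stood at 12.1 and 14.3 FPKM unstimulated and 11.4 to 13.1 FPKM stimulated and was not called. Hspa13 (Stch), an HSP70 of the secretory pathway, fell, with a log2 change of -0.33 (SE 0.0634, adjusted p = 5.66e-04), which was not called after quantile normalization (adjusted p = 0.958).

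Of 12 genes outside the naming rule that fold or clear proteins in the ER, 8 rose and 3 fell. The shares of all tested genes were 31.2% and 47.7%. The BiP exchange factor Hyou1 rose by 1.02 (SE 0.0616, adjusted p = 4.00e-08), the lectin chaperone gene Canx by 0.75 and Herpud1, of ER-associated degradation, by 0.83, while the disulfide isomerase gene Pdia4 fell by 0.84 (limma adjusted p = 1.28e-08, 5.16e-09 and 6.77e-08). Of 9 tested regulators of stress responses, 6 rose and 1 fell, beside the same shares of all tested genes. Ddit3 (Chop) rose by 1.58, Atf4 by 1.24 and Atf5 by 1.19, all factors of the integrated stress response, and Hsf1, the heat shock factor, by 0.64 (limma adjusted p = 7.45e-11, 5.80e-10, 2.81e-08 and 7.21e-07). Eif2ak3, the gene of the ER stress kinase Perk, fell, with a log2 change of -0.91 (SE 0.0677, adjusted p = 2.38e-07). The level of Ern1, the gene of Ire1, was 2.25 and 2.27 FPKM unstimulated and 1.97 to 2.56 FPKM stimulated.

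**Figure D3:**
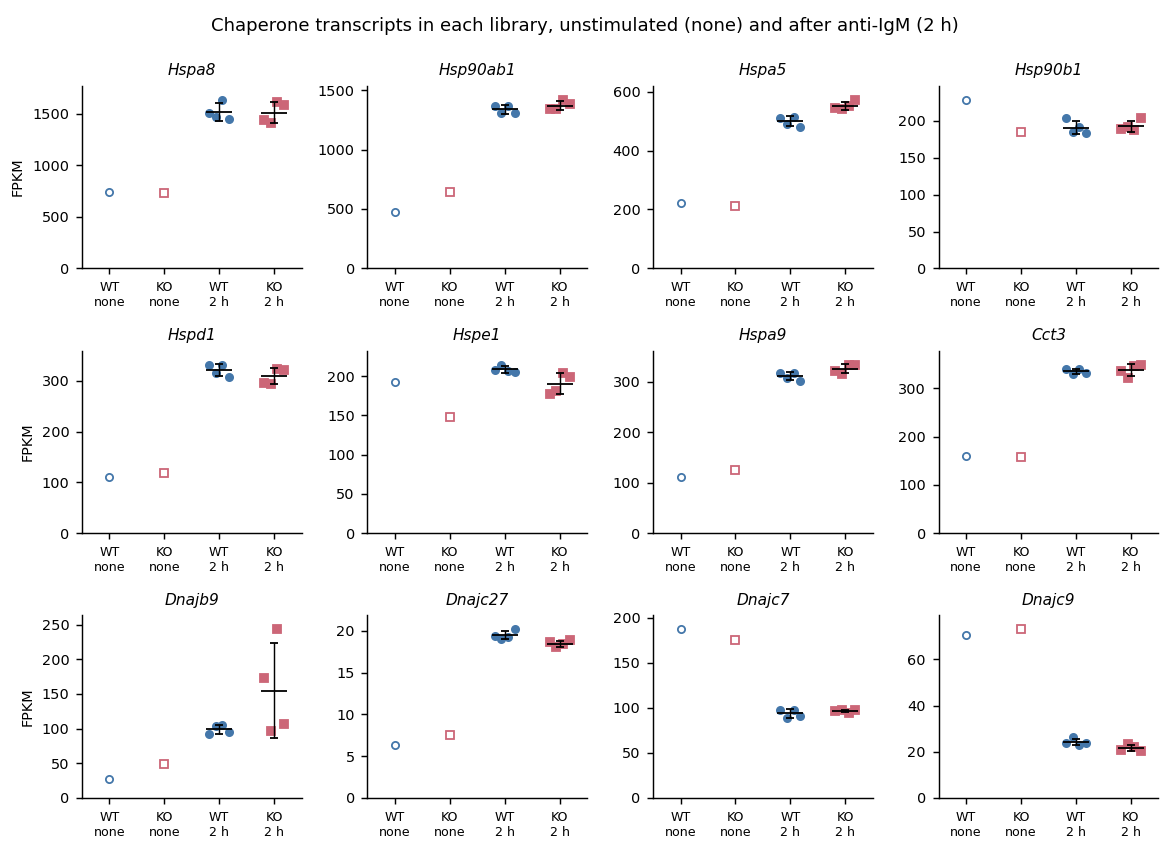
FPKM of 12 chaperone genes in each of the 10 libraries (open symbols unstimulated, filled symbols 2 h after anti-IgM; circles wild type, squares labelled knockout; bars mean ± SD, n = 4). Hspd1 and Hspa5 rise with no overlap. Their partners Hspe1, called as a smaller rise, and Hsp90b1, not called, each overlap their unstimulated values. Dnajb9 spreads from 96.1 to 243 FPKM in the libraries labelled knockout.

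Of 35 tested J proteins 15 rose and 13 fell (median 0.095), and of the 26 other members 17 rose and 3 fell (median 0.66), beside 31.2% and 47.7% of all tested genes. The difference between these counts was not tested. The 3 tested DNAJA proteins, the general partners of cytosolic and mitochondrial HSP70, all rose. Dnaja2 stood at 78.3 FPKM in wild-type cells without anti-IgM and 79.2 FPKM in the unstimulated library labelled knockout, against 138, 137, 142 and 134 FPKM in wild-type libraries A to D after anti-IgM and 140.0, 137, 149 and 146 FPKM in their counterparts labelled knockout (log2 change 0.83, SE 0.0402, adjusted p = 7.26e-09). Dnaja1 rose from 36.3 and 32.8 to 38.5 to 44.1 FPKM (log2 change 0.25, SE 0.0591, adjusted p = 0.00221), with adjusted p = 0.0512 without the unstimulated library labelled knockout. Of the 5 tested DNAJB proteins of the cytosol, Dnajb5 rose (log2 change 0.68, SE 0.0782, adjusted p = 9.25e-06), Dnajb1 fell, and Dnajb2, Dnajb4 and Dnajb6 were not called. Dnajb2 stood at 11.9 and 18.2 FPKM unstimulated and 14.6 to 18.5 FPKM stimulated, and Dnajb4 at 10.2 and 9.51 and at 8.62 to 10.7 FPKM. Dnajb2 was called as a rise with median-of-ratios scaling (adjusted p = 0.00542) and without the unstimulated library labelled knockout (adjusted p = 0.00297), and its change was -0.070 without the wild-type one (adjusted p = 0.4398).

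Cytosolic and nuclear DNAJC proteins, many of them tied to a single task, included Dnajc27, which rose, and Dnajc9, which fell. Dnajc27, a Rab-like GTPase with a J domain, stood at 6.36 FPKM in wild-type cells without anti-IgM and 7.57 FPKM in the unstimulated library labelled knockout, against 19.4, 19.1, 19.2 and 20.2 FPKM in wild-type libraries A to D after anti-IgM and 18.6, 18.03, 18.4 and 18.9 FPKM in their counterparts labelled knockout, a rise of 1.33 (SE 0.0616, adjusted p = 4.83e-09). Dnajc21, a factor of ribosome maturation, rose by 0.88 (SE 0.0473, adjusted p = 1.59e-08), and Dnajc2, which sits at the ribosome exit with Hspa14, by 0.601 (SE 0.0399, adjusted p = 8.99e-08). Dnajc9, a J protein that also chaperones histones H3 and H4, fell most: it stood at 70.4 and 73 FPKM without anti-IgM (wild type first), 23.6, 26.4, 23.03 and 23.99 FPKM in wild type after anti-IgM and 20.7, 23.4, 21.96 and 20.2 FPKM in the libraries labelled knockout. All 8 stimulated libraries held under 27 FPKM, and the change was -1.61 (SE 0.0695, adjusted p = 2.88e-09). Dnajc7, which binds HSP70 and HSP90 through TPR repeats, was the most abundant J protein unstimulated, at 187 and 175 FPKM without anti-IgM (wild type first), 98.2, 89.04, 97.6 and 90.5 FPKM in wild type after anti-IgM and 97.1, 97.6, 94.2 and 97.1 FPKM in the libraries labelled knockout. It fell, with a log2 change of -0.92 (SE 0.0484, adjusted p = 1.31e-08), again with no overlap. Dnajc12 (log2 change -0.83, SE 0.114, adjusted p = 4.06e-05), Dnajc17 (log2 change -0.38, SE 0.0824, adjusted p = 0.001398) and Dnajc24 (log2 change -0.31, SE 0.108, adjusted p = 0.0221), of diphthamide synthesis, fell from levels under 10 FPKM. The call of Dnajc17 was lost as TPM (adjusted p = 0.0558) and after quantile normalization (adjusted p = 0.579), and that of Dnajc24 without either unstimulated library (adjusted p = 0.135 without wild type, 0.0762 without labelled knockout).

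Dnajc8, which associates with the splicing machinery, stood at 129 and 111 FPKM unstimulated and 125 to 132 FPKM stimulated and was not called (log2 change 0.097, SE 0.0468, adjusted p = 0.0764). With median-of-ratios scaling (adjusted p = 0.00135) and without the unstimulated wild-type library (adjusted p = 0.00141) its rise was called, and without the one labelled knockout the change was -0.0028. Dnajc13 (RME-8), of endosome sorting, rose by 0.53 (SE 0.0644, adjusted p = 1.58e-05). Dnajc5, the cysteine string protein of secretory vesicles, stood at 42.4 and 47.7 FPKM unstimulated and 45.9 to 50.9 FPKM stimulated and was not called (log2 change 0.095, SE 0.0518, adjusted p = 0.112). It was called as a rise with median-of-ratios scaling (adjusted p = 1.09e-04) and without the unstimulated library labelled knockout (adjusted p = 0.00164) and changed by -0.022 without the wild-type one. Dnajc4 and Dnajc25 have no compartment assigned here: Dnajc4 fell (log2 change -0.73, SE 0.132, adjusted p = 3.66e-04), and Dnajc25 rose from 2.84 and 3.67 to 4.98 to 7.49 FPKM (log2 change 0.83, SE 0.121, adjusted p = 6.97e-05).

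Small heat shock proteins, which hold unfolding chains without ATP, were scarce. Of 8 members, 3 were tested. Hspb11, which despite its name is a subunit of intraflagellar transport (Ift25), fell from 17.9 and 14 to 5.99 to 8.62 FPKM (log2 change -0.94, SE 0.119, adjusted p = 2.00e-05). Hspb6 passed the filter only through its unstimulated level, 2.94 and 3.21 FPKM, and stood at 0.410 to 1.14 FPKM after anti-IgM. Because of that filter it had to differ, and its fall is given as a description. Hspb1 (Hsp25) was listed at 1.06 and 0.740 FPKM unstimulated and 0.620 to 1.65 FPKM stimulated. The testis-enriched Hspa2, also near the filter, stood at 1.86 and 2.66 FPKM unstimulated and 1.96 to 2.73 FPKM stimulated and was called as a rise after quantile normalization alone (adjusted p = 0.00823).

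Cochaperones of HSP90 and HSP70 outside the naming rule rose too. Of 18 tested, 14 rose and none fell at an adjusted p under 0.05 by limma, where 14 had an unadjusted p under 0.05. Of all tested genes, 31.2% rose and 47.7% fell. With median-of-ratios scaling 16 cochaperone genes rose and none fell, beside 39.1% and 38.8% of all tested genes. Stip1 (Hop), which bridges HSP70 and HSP90, rose from 41.8 and 48.2 to 90.8 to 103 FPKM (log2 change 1.100, SE 0.0586, adjusted p = 1.45e-08). Ppid, an HSP90-binding cyclophilin, rose by 1.19, St13 (Hip) by 1.17, the exchange factor Bag5 by 1.02 and Ptges3 (p23) by 1.01 (limma adjusted p = 1.73e-08, 6.25e-09, 8.29e-09 and 2.20e-08). Bag3, a heat-inducible exchange factor, was at 0.370 to 0.710 FPKM after anti-IgM and below the filter. Of 8 mitochondrial proteostasis genes, 5 rose and 2 fell, beside 31.2% and 47.7% of all tested genes. The protease gene Lonp1 rose by 0.86 (SE 0.0569, adjusted p = 8.95e-08) and the mortalin exchange factor gene Grpel1 by 0.63 (SE 0.0579, adjusted p = 1.40e-06).

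The stated purpose of the series was to find inducible genes that differ with Nr4a1 genotype, so the stimulated libraries labelled knockout were compared with the stimulated wild-type ones, 4 against 4. Of 61 tested members 1 was higher and 5 were lower at a limma adjusted p under 0.05, where 3.91% of all tested genes were higher and 5.81% lower. With median-of-ratios scaling 1 was higher and 3 lower, and all genes gave 5.23% and 3.92%. None of the 6 reached a log2 difference of 0.5. The count lower was 3 without wild-type library A, C or D or labelled knockout library A, and 2 without wild-type library B or labelled knockout library D; the count higher was 2 without labelled knockout library B. All 7 CCT subunits differed by 0.025 or less in size, and the 3 HSP90 genes by 0.034 or less; none of the 10 was called, and none had an unadjusted p under 0.05. The 4 libraries labelled knockout all lay above the 4 wild-type ones for 2 members and all below for 8, beside 5.96% and 9.57% of all genes.

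Hspa5 was the 1 member called higher. The stimulated wild-type libraries held 512, 491, 514 and 478 FPKM and those labelled knockout 545, 539.7, 551 and 572 FPKM, so every library labelled knockout lay above every wild-type one. The means were 499 ± 17.2 FPKM and 552 ± 14.1 FPKM (SD, n = 4 each), a log2 difference of 0.15 (SE 0.0303, adjusted p = 0.0153). The adjusted p was 0.0511 after quantile normalization. The ratio of Hspa5 to Hsp90b1 was higher in the libraries labelled knockout, 2.86 ± 0.0639 against 2.62 ± 0.0766 (SD, n = 4), with no overlap. The two-sided exact permutation p was 0.0286, the smallest that 70 labellings allow, and 0.0571 after adjustment. Hsp90b1 itself differed by 0.017 on the log2 scale and was not called, so this ratio largely repeats the Hspa5 values. The pair was chosen after its values were seen. Of the 5 tested plasma cell markers 1, Prdm1, was higher in the libraries labelled knockout (log2 change 0.44, SE 0.0843, adjusted p = 0.0101). The other 4 were not called, with log2 differences of 0.41 (Jchain), 0.098 (Irf4), 0.052 (Xbp1) and -0.027 (Sdc1), though Irf4 was called with median-of-ratios scaling (adjusted p = 0.0439). Their part in the Hspa5 difference was not tested.

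The 5 members called lower were 3 of the ER and 2 of the cytosol. Hspa14 held 59.1, 56.5, 59.8 and 56.6 FPKM in the wild-type libraries against 50.99, 52.7, 53.8 and 51.8 FPKM under the knockout label, with no overlap (log2 change -0.15, SE 0.0289, adjusted p = 0.01203), and was not called with median-of-ratios scaling (adjusted p = 0.0734). Dnajc3 stood at 13.5, 14.3, 12.96 and 12.5 FPKM and 11.4, 11.7, 11.2 and 11.2 FPKM, again with no overlap (log2 change -0.21, SE 0.0453, adjusted p = 0.0176); without labelled knockout library D its adjusted p was 0.0509. Dnajc12, a cochaperone of aromatic amino acid hydroxylases expressed here at only 1.47 to 2.88 FPKM, held 2.69, 2.88, 2.39 and 2.77 FPKM and 1.83, 2.15, 1.47 and 1.47 FPKM (log2 change -0.44, SE 0.09203, adjusted p = 0.0165), and without wild-type library B its adjusted p was 0.0524.

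Hspa13 held 7.30, 7.07, 6.81 and 6.97 FPKM and 5.98, 6.28, 5.44 and 6.25 FPKM in the 2 genotypes (log2 change -0.203, SE 0.0522, adjusted p = 0.0397), and Dnajc10 held 12.9, 13.1, 13.8 and 12.8 FPKM and 11.9, 11.7, 11.03 and 11.9 FPKM (log2 change -0.16, SE 0.0406, adjusted p = 0.0355). The groups did not overlap for either gene. Dnajc10 was not called when any 1 of the 8 libraries was left out (adjusted p 0.0593 to 0.0888), and Hspa13 was kept only without labelled knockout library B (otherwise 0.0582 to 0.102). Rescaling to TPM gave 0.0561 for Dnajc10 and 0.0619 for Hspa13. Outside the naming rule, Hsf2, a second heat shock factor, was lower in the libraries labelled knockout (log2 change -0.62, SE 0.153, adjusted p = 0.0346), the mitochondrial protease gene Clpp was lower (log2 change -0.25, SE 0.0416, adjusted p = 0.00464), and Atf4 was higher by 0.11 (SE 0.0305, adjusted p = 0.0495). Atf4 was not called with median-of-ratios scaling (limma adjusted p = 0.0565).

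**Figure D4:**
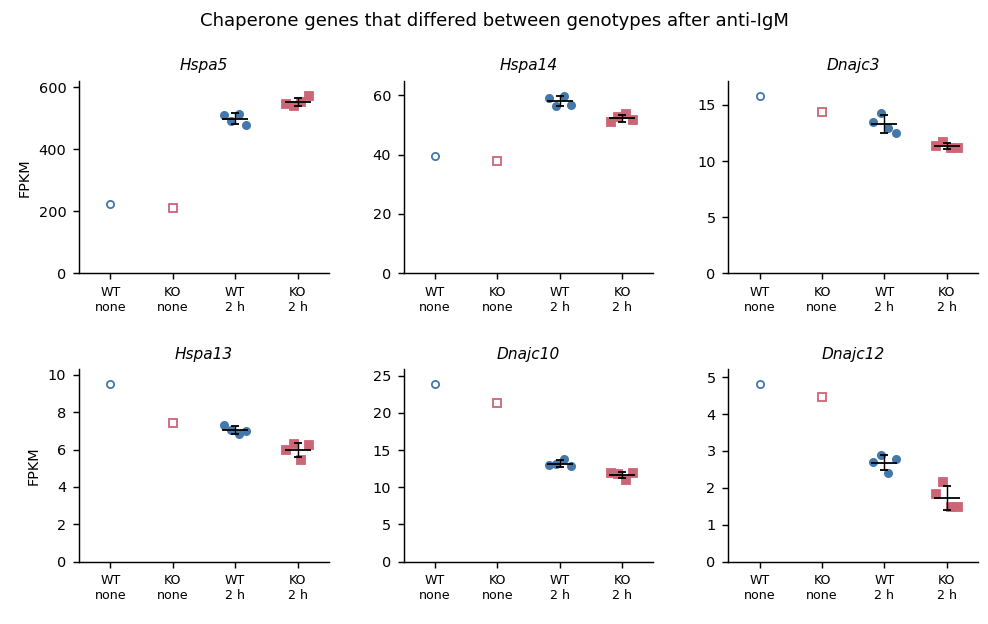
FPKM in each library of the 6 chaperone genes called between genotypes after anti-IgM (open symbols unstimulated, filled symbols stimulated; circles wild type, squares labelled knockout; bars mean ± SD, n = 4). In each panel the 4 stimulated squares and the 4 stimulated circles do not overlap, above them for Hspa5 and below for the other 5.

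Dnajb9 had the largest fitted difference between genotypes among members and was not called; 2 libraries stood apart in it. The stimulated wild-type libraries held 91.9, 103, 106 and 95.3 FPKM, and those labelled knockout held 173, 96.1, 243 and 107 FPKM. Libraries A and C were high, while B and D lay within or just above the wild-type range. The difference was 0.54 (SE 0.253, adjusted p = 0.253), and the largest SD between replicates of any tested member was that of Dnajb9, 0.621 on the log2 scale. On that scale, the lower of libraries A and C lay 0.697 above the highest of the other 6. Of the 10225 tested genes, 3 had these 2 libraries above the rest by at least 0.5, and among genes averaging 10 FPKM or more Dnajb9 was the only one; the pattern was looked for after the values were seen. Of other unfolded protein response members, Hspa5 stood at 545 and 551 FPKM in A and C and at 539.7 and 572 FPKM in B and D, and Dnajc3 at 11.4 and 11.2 against 11.7 and 11.2 FPKM. Unstimulated, Dnajb9 measured 27.4 FPKM for wild type against 49.3 FPKM under the knockout label.

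The response of each genotype was then set against the other. Each rests on 1 unstimulated library, which the fit assumes to vary like the stimulated groups; that 1 library enters every difference. Of 61 tested members 4 had a higher log2 response in the libraries labelled knockout and 9 a lower one, where 4.18% of all tested genes were higher and 14.7% lower (limma, two-sided, adjusted p under 0.05). These are signed differences, so a higher response can be a smaller fall and a lower one a larger fall. Dnajc19 changed by -0.75 in wild type and -0.14 under the knockout label, and Dnajc14 by -0.83 and -1.15. Median-of-ratios scaling gave 5 and 3 members, beside 5.50% and 7.71% of all genes, and TPM gave 0 and 24. Without 1 stimulated library the count higher was 2 (wild type A), 1 (wild type B, labelled knockout C or D) or 0 (wild type D). The median difference over all tested genes was itself -0.096 on the deposited scale, -0.25 as TPM and -0.023 with median-of-ratios scaling. Calls were more common among abundant genes: of the 777 averaging 100 FPKM or more, 196 were higher and 166 lower. Of the 20 members at that level, 3 were higher and 1 lower.

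Hsp90ab1 and Dnaja3 were called in all 17 alternatives, as was Dnajc13. Every one of these alternatives kept both unstimulated libraries, so they do not test those baselines. Hsp90ab1 rose by 1.49 in wild type and by 1.09 in the libraries labelled knockout, a difference of -0.404 (SE 0.0643, adjusted p = 0.00413). The stimulated levels were 1338 ± 35.6 FPKM and 1369 ± 37.8 FPKM (SD, n = 4; log2 change 0.034, SE 0.02904, adjusted p = 0.561), and the unstimulated ones were 474 and 642 FPKM. Dnaja3 rose by 0.64 and 0.18 (log2 change -0.46, SE 0.0686, adjusted p = 0.00332), with unstimulated values of 18.2 and 24.2 FPKM, and Dnajc13 by 0.697 and 0.36 (log2 change -0.34, SE 0.0651, adjusted p = 0.00827). The other 6 lower differences were -0.43 (Dnajc30), -0.42 (Dnajb2), -0.38 (Dnajb5), -0.31 (Dnajc14), -0.29 (Dnajc27) and -0.24 (Dnajc5). The 4 higher ones were 0.601 (Dnajc19), 0.32 (Hsp90b1), 0.23 (Hspa5) and 0.201 (Dnajc8). These 10 were each lost in at least 2 alternatives, and none of the 4 higher ones was called as TPM, where Hspa5 gave 0.055 and Hsp90b1 0.14. Leaving out single stimulated libraries also ended calls: any of wild type A, C and D or labelled knockout A, C and D for Dnajc19 (adjusted p 0.05200 to 0.0704), wild type B, C or D for Hsp90b1 (adjusted p = 0.0521 to 0.0544), wild type B or D or labelled knockout A, C or D for Hspa5 (adjusted p = 0.0554 to 0.06803), and wild type A, B or D or labelled knockout C or D for Dnajc8 (adjusted p = 0.0515 to 0.0636). Among the lower ones this held for Dnajc14 (wild type A or C, labelled knockout A, C or D; 0.0511 to 0.0607), Dnajb2 (wild type C or D, labelled knockout D; 0.0518 to 0.0546), Dnajb5 (wild type C; 0.0505) and Dnajc5 (labelled knockout D; 0.0535).

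**Figure D5:**
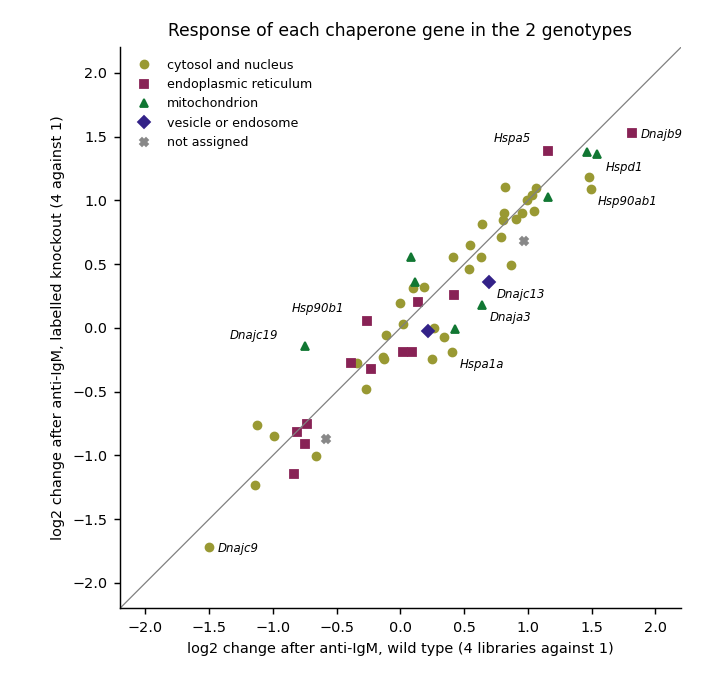
Log2 change after anti-IgM in the libraries labelled knockout (vertical axis) against wild type (horizontal axis) for the 61 tested chaperone genes, each change taken as 4 stimulated libraries against 1 unstimulated one, with symbols for compartment; the line marks equal change. Hsp90ab1, Dnaja3 and Dnajc13 lie below the line, and Dnajc19, Hsp90b1 and Hspa5 above it.

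Before stimulation the comparison is between 1 library and 1 library, with no test. The library labelled knockout was higher by at least 0.5 on the log2 scale for 3 members, Dnajb9 (0.83), Hspa1a (0.65) and Dnajb2 (0.58), and lower for 1, Dnajc19 (-0.53). Of all tested genes, 4.31% were higher and 2.76% lower by that much. Hsp90ab1 differed by 0.44 and Hspe1 by -0.38. The median difference was 0.052 over the members and 0.067 over all tested genes.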

How the data were processed

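Polyadenylated RNA of 10 B cell libraries was sequenced after stranded TruSeq preparation, per the labels' protocols. The authors deposited 1 table of FPKM with 2 decimals. Reads were processed with STAR 2.4 and RSEM 1.2.14 on mm10, per the submitters' processing notes; the annotation, filters and use of strand in counting are not given in the sources used here, so overlapping and antisense genes cannot be told apart with certainty. FPKM are not counts, so no count model was used. Depth is unknown in absolute terms; whole-fragment steps of 35 genes gave relative depths of 0.975 to 1.04.

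Every column matched 1 sample's description. Values were taken as log2(FPKM + 1), a scale that shrinks changes of the lowest genes, and tested with limma 3.58.1 in R 4.3.3 (lmFit, eBayes with trend), after tests on simulated data. Simulated log2 changes of 0.3 were recovered for 59.5% of genes after anti-IgM, 64.5% between genotypes and 0% for the difference in response. At 0.6 these were 90%, 89.5% and 53%, and at 1 they were 97.5%, 96.5% and 83%. A gene not called may thus still have changed. The 10225 genes averaging 1 FPKM or more were tested. Alternatives were a pseudocount of 0.1 or 5, a mean of 5 FPKM or no filter, TPM, median-of-ratios and quantile scaling, eBayes without trend, the letter as a block, and leaving out each library. The members and lists were chosen with earlier results of these data known. Full statistics were given for a list of core chaperones, the 10 largest called rises and falls, and members called between genotypes or in the difference of responses; others are named with values as the text needs them. Start-site sequences and gene coordinates are RefSeq's on GRCm38.p6.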

Additional observations from a re-analysis of the deposited data

Results flagged for a closer look

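Each tested member was checked in both stimulated groups for 1 library far from the other 3 (122 groups of 4; chance marks about 1 in 20). There were 7 such values. Cct7 stood at 155 FPKM in wild-type library D, with the other 3 at 161 to 162, and Dnajc8 at 132.3 FPKM in wild-type library C, with the others at 127 to 128. Dnajb11 stood at 39.8 FPKM in wild-type library C (41.6 to 41.7 in the others), and Dnajc4 at 6.30 FPKM in wild-type library A (4.50 to 4.70). In the libraries labelled knockout, Dnajc7 stood at 94.2 FPKM in C (97.1 to 97.6), Dnajc14 at 11.1 FPKM in B (10.66 to 10.73) and Dnajc17 at 6.96 FPKM in A (5.63 to 5.78).

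Differences in response to anti-IgM between genotypes, labelled knockout minus wild type, are listed for the members called in that test above. Each genotype rests on 1 unstimulated library. The share of members called lay near that of all tested genes, whose median difference was itself -0.096. All but Hsp90ab1, Dnaja3 and Dnajc13 lost the call in at least 2 alternatives. The log2 differences were 0.601 for Dnajc19, 0.32 for Hsp90b1, 0.23 for Hspa5 and 0.201 for Dnajc8. They were -0.46 for Dnaja3, -0.43 for Dnajc30, -0.42 for Dnajb2, -0.404 for Hsp90ab1, -0.38 for Dnajb5, -0.34 for Dnajc13, -0.31 for Dnajc14, -0.29 for Dnajc27 and -0.24 for Dnajc5.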

How the results depend on the processing

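The counts of members that rose or fell after anti-IgM stayed within 1.5 times the main ones in every alternative of scale, filter, model or left-out library; a log2 change of at least 1 left 9 and 2. Between genotypes, the count higher was 2 with no filter, 0 with the letter as a block and 1 to 2 over left-out libraries, and the count lower was 3 as TPM, 3 with median-of-ratios scaling, 3 with the block and 2 to 6 over left-out libraries. For the difference in response, the count higher was 0 as TPM, 2 after quantile normalization, 0 without trend, 0 with the block and 0 to 5 over left-out libraries, and the count lower was 24 as TPM, 3 with median-of-ratios scaling, 5 after quantile normalization and 3 with the block. Libraries of the same letter did not deviate together (r = -0.021, 0.044, 0.0075 and -0.12 for A to D). These r values do not settle whether the letters are pairs, a relation the labels do not give. Lyz2 was highest in library B of both genotypes (115 FPKM in wild type, 82.6 FPKM labelled knockout), as was Mki67 (7.35 and 10.88 FPKM). With the block the calls of Hspe1 after anti-IgM (adjusted p = 0.117) and of Hspa5 between genotypes (adjusted p = 0.05495) were among those lost. Called changes after anti-IgM kept their direction except Dnajc24 and Dnajc30, which were not called in the opposite direction, and the other reversals are of changes that were not called. Of these, Dnajb4, Dnajb6, Dnajc8, Hspa2 and Hspa4l were called in the opposite direction after quantile normalization. As TPM the log2 change was 0.11 for Dnajb11, 0.066 for Dnajb12, 0.065 for Dnajb4, 0.061 for Hsp90b1 and 0.11 for Hspa2. With median-of-ratios scaling these were 0.12, 0.080, 0.078, 0.075 and 0.12. After quantile normalization the change was 0.12 for Dnajb12, 0.196 for Dnajb4, -0.15 for Dnajb6, 0.104 for Dnajc24, -0.14 for Dnajc8, 0.37 for Hspa2 and 0.21 for Hspa4l. Hspa2 gave 0.0027 with a pseudocount of 0.1 and 0.010 with the block. Over left-out libraries the change ran from -0.19 to 0.087 for Dnajb11, -0.19 to 0.018 for Dnajb12, -0.070 to 0.35 for Dnajb2, -0.0054 to 0.43 for Dnajc30, -0.022 to 0.21 for Dnajc5, -0.0028 to 0.198 for Dnajc8, -0.26 to 0.057 for Hsp90b1, -0.19 to 0.41 for Hspa1a and -0.25 to 0.24 for Hspa2. The 48 calls after anti-IgM were kept in 859 of 907 alternative values and lost in 48, and the 13 members not called gained a call in 22 of 245 in the same direction and in 5 in the opposite one. The 6 genotype calls were kept in 79 of 107 values, and the 13 calls of a difference in response in 157 of 221. With 1 unstimulated library per genotype, leaving one out removes that genotype's baseline, so the difference in response was not refitted without either. Depth is not known, so small differences of genes near 1 FPKM are not resolved.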
